A study of Mus musculus with 8 samples.

Results

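The genes described here make and load major histocompatibility complex (MHC) class I molecules: the heavy chains H2-D1 and H2-K1, the light chain B2m, the peptide transporter subunits Tap1 and Tap2, the bridging chaperone Tapbp, and the immunoproteasome subunits Psmb8 and Psmb9. Every probe set annotated to exactly 1 of these 8 genes was taken, which gave 25 of the 45037 probe sets on the array that were not controls. The genes were picked with the higher values of H2-K1 and of some H2-D1 probe sets in transgenic skin already known. Their differences between the groups are therefore given as a description and support nothing. Belly skin was taken from 8-month-old mice. A transgene for human hurpin, an inhibitor of the protease cathepsin L, was present in 4 animals, of which 7 and 84 were female and 11 and 17 male. The 3 wildtype mice were the males 26 and 28 and the female 29. Total RNA of each animal was hybridised to 1 array, and that of wildtype 29 to 2 arrays, which were averaged. The strain of the mice, the promoter that drives the transgene, the number of founder lines and the kinship of the animals are not given in the sources used here.

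MHC class I molecules stand on the surface of nearly all nucleated cells and show peptides from inside the cell to cytotoxic T cells. Peptides are cut by the proteasome, in which Psmb8 and Psmb9 replace standard catalytic subunits after exposure to interferon gamma. The transporter formed by Tap1 and Tap2 carries them into the endoplasmic reticulum, where Tapbp (tapasin) holds an empty heavy chain with B2m next to it until a peptide binds. H2-K1 and H2-D1 lie in the H2 complex and are among the most polymorphic genes of the mouse, so that inbred strains carry different alleles, grouped as haplotypes. Their sequences are also close to each other and to other class I genes. Affymetrix marks probe sets whose probes may bind other genes with the ending _x_at, which was the case for 7 of the 9 probe sets of H2-D1 and all 4 of H2-K1, but for 0 of 2 for B2m.

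The stretches before the start sites are shown for the chains themselves, because those of H2-D1 and H2-K1 share a run of identical bases. Sequences are from RefSeq on assembly GRCm38.p6, a C57BL/6J reference, and not from the mice measured here. Windows of 250 bases before an annotated transcript start were present for 7 of the 8 genes, with 2 starts for H2-K1. Capitals mark matches on either strand to GAAA, NN and GAAA in a row, a repeat of the kind bound by interferon regulatory factors, or to GGG, NNTN and CCC in a row, a pattern of the kind bound by NF-kappaB (N is any base).
H2-D1 (chr17:35262844-35263093, plus strand): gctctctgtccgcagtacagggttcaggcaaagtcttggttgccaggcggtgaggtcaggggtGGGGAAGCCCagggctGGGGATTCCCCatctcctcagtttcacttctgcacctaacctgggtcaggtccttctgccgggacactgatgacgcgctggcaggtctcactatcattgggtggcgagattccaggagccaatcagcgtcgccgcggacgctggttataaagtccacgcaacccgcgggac
H2-K1 (chr17:34000348-34000597, minus strand): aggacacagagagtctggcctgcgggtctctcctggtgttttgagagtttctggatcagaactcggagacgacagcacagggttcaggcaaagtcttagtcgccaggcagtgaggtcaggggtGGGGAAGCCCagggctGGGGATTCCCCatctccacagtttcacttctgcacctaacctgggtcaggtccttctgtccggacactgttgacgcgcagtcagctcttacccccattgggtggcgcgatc
B2m (chr2:122147437-122147686, plus strand): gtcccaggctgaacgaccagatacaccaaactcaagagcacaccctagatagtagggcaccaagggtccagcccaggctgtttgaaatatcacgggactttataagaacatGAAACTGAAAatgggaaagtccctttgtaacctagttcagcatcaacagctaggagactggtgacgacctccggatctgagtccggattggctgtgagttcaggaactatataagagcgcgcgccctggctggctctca
The windows of H2-D1 and H2-K1 held an identical run of 47 bases. Each held 3 matches to the NF-kappaB-type pattern, of which a pair overlap, where 4.29% of all 32851 windows held the pattern at all. The interferon-type repeat was found in B2m, against 2.98% of all windows, and in none of the other members' windows. Only exact matches to the pattern were counted. A window without a match, as for H2-D1 and H2-K1, can still hold a differing site bound by interferon regulatory factors. The reversed CCAAT box ATTGG, on either strand, was found in 33.8% of all windows and in the 3 shown. Tap1 and Psmb9 start 225 bases apart on opposite strands.

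Levels are log2 of the deposited signal intensity plus 21.8, a constant that sets a floor of 4.45. List means of keratinocyte markers lay between 13.38 and 13.87 and those of fibroblast markers between 13.69 and 14.55 over the 7 animals. Xist lay between 12.84 and 13.16 in the labelled females and between 6.81 and 7.10 in the males. The arrays summed to intensities of 34785081 to 37857733. For Gapdh, the signal at the 3' end over that at the 5' end, which rises where labelled RNA is short, ranged from 0.927 to 1.41 on the 4 wildtype arrays. It reached 13.8 and 17.2 in the transgenic females 7 and 84, and 1.45 and 4.68 in the males 11 and 17. In whole skin, fewer cells of a type and less RNA per cell cannot be told apart. Nothing in the labels says more of how the animals were housed or bred, so whether the groups also differ in these is not known. The p-values set a difference against the spread of the 7 animals that is left after the fit.

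H2-D1, a heavy chain that carries the peptide groove, gave opposite pictures depending on the probe set. In 1451683_x_at transgenic 7, 11 and 84 stood at 11.16, 11.76 and 12.22, but transgenic 17 at 6.66. The wildtype animals stood at 5.93, 6.64 and 5.64 (animals 26, 28 and 29). The groups therefore did not overlap, but transgenic 17 lay just above wildtype 28 and far below the other transgenic animals. Means were 10.45 ± 2.56 in transgenic (SD, n = 4) and 6.07 ± 0.51 in wildtype skin (SD, n = 3), a log2 difference of 4.38. The wildtype mean lay below the level filter of 6.45, near the floor, so the probe set passed through the transgenic animals alone and the size of the difference moves with the constant added, from 3.58 to 4.73 with the constants 87.2 and 5.45. It was 5.64 without transgenic 17.

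A pair of further H2-D1 probe sets put the animals in the same arrangement at a higher signal. In 1451784_x_at transgenic 7, 11 and 84 stood at 13.35, 13.70 and 13.68 and transgenic 17 at 10.64, against 10.70, 9.85 and 9.49 in wildtype 26, 28 and 29. In 1425545_x_at the same transgenic animals gave 13.43, 13.65 and 13.72 with transgenic 17 at 10.93, against 11.01, 9.58 and 9.31. In each of these transgenic 17 fell between wildtype 26 and wildtype 28, so the groups overlapped by that animal alone. The log2 differences were 2.83 and 2.97, and 3.57 and 3.63 without transgenic 17. The 2 arrays of wildtype 29 differed by 0.96 and 1.46 here, against a median of 0.19 over all probe sets tested. The probe set 1426324_at repeated the order more weakly, with 8.73, 9.05 and 9.52 in transgenic 7, 11 and 84, 8.44 in transgenic 17 and 8.49, 8.09 and 7.73 in wildtype skin.

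The other H2-D1 probe sets were lowest in transgenic 84 or showed no separation. In 1450170_x_at, transgenic 84 stood at 8.38 and transgenic 7 and 11 at 12.66 and 12.80, below transgenic 17 at 13.99 and wildtype 26, 28 and 29 at 14.04, 13.51 and 13.36. A similar order was seen in 1452544_x_at, with 5.64 in transgenic 84, 7.70 and 8.43 in transgenic 7 and 11, 9.91 in transgenic 17 and 9.57, 9.05 and 8.98 in wildtype skin. These were the animals that were high in 1451683_x_at, now in the lower places. The third, 1427651_x_at, gave 5.05 in transgenic 84, 7.45 and 7.78 in transgenic 7 and 11 and 9.57 in transgenic 17, with wildtype at 8.77, 7.28 and 6.93.

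The log2 differences of these 3 probe sets were -1.68, -1.28 and -0.20, and transgenic 84 carried much of each. Without it they were -0.49, -0.52 and 0.60. Transgenic 84 also had the highest Gapdh ratio, and a fit that included its log2 ratio gave 0.51, 0.43 and 1.37. The part of RNA quality in these values was not tested further. The groups overlapped in the last pair. Over the 7 animals 1425614_x_at ranged from 6.58 to 7.26 (difference -0.075). Below the level filter, 1451934_at ranged from 4.78 to 6.95, with transgenic 17 highest (difference 0.92).

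**Figure D1:**
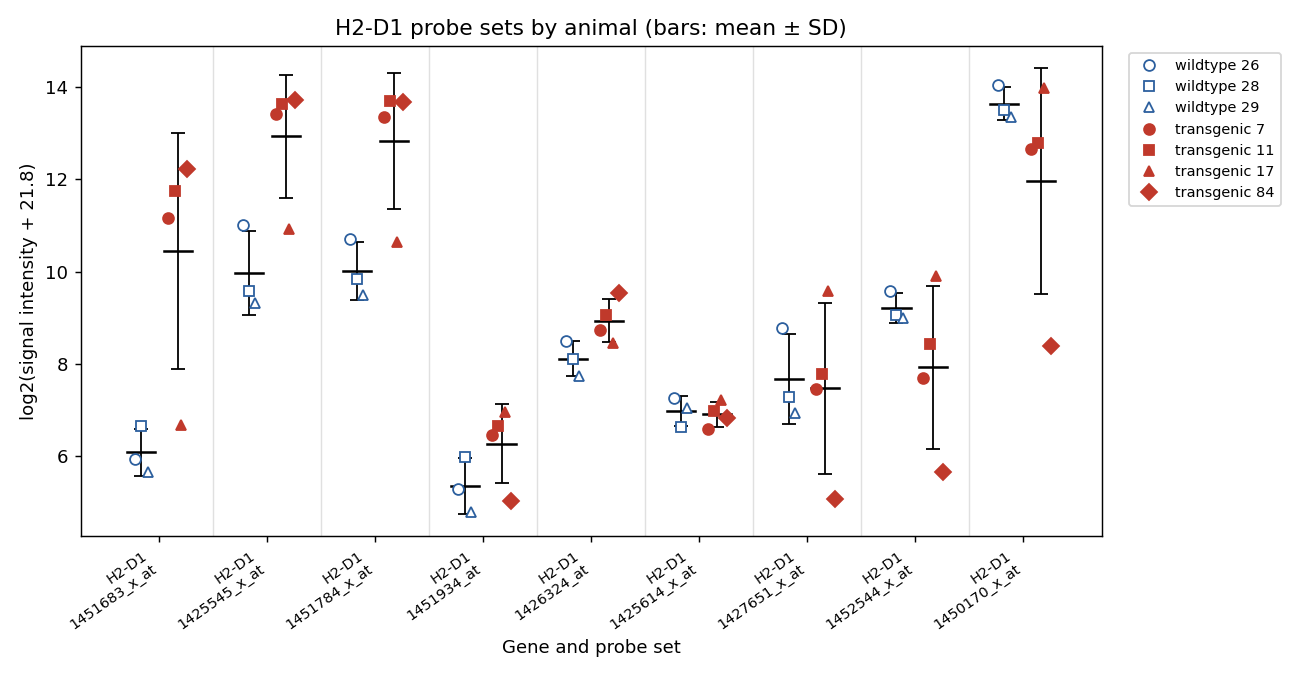
Each of the 9 H2-D1 probe sets on the x axis, with the log2 level (signal intensity plus 21.8) of each animal on the y axis; open blue symbols are wildtype, filled red symbols transgenic, and bars the mean ± SD (n = 3 and 4). In 1451683_x_at, 1425545_x_at and 1451784_x_at transgenic 17 sits with the wildtype animals at 6.66, 10.93 and 10.64, and in 1450170_x_at transgenic 84 sits alone at 8.38.

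H2-K1, the other classical heavy chain measured here, was higher on average in transgenic skin in all 4 of its probe sets, again with transgenic 17 nearest to wildtype in 3. In 1425336_x_at the transgenic animals 7, 11, 17 and 84 stood at 13.72, 13.67, 12.27 and 14.21 and the wildtype animals 26, 28 and 29 at 11.87, 10.86 and 11.09. All transgenic animals lay above all wildtype animals (13.46 ± 0.84 against 11.27 ± 0.53, SD, n = 4 and 3). In 1451931_x_at the values were 12.81, 13.06, 9.82 and 13.41 against 9.95, 8.93 and 8.67, a log2 difference of 3.09 with transgenic 17 below wildtype 26. It was 3.91 without transgenic 17.

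The other H2-K1 probe sets had smaller gaps. In 1450534_x_at the transgenic animals gave 8.79, 9.44, 8.71 and 9.58 and the wildtype animals 8.67, 7.15 and 7.42, so the groups did not overlap, with transgenic 17 just above wildtype 26. In 1427746_x_at, transgenic values were 11.77, 12.32, 11.30 and 10.92 against 11.19, 10.32 and 10.24, and here transgenic 84 was the lowest transgenic animal and lay below wildtype 26. Log2 differences were 1.38 and 0.998. Over all 20 alternative settings the difference stayed above 0 in each of the 4 probe sets, between 0.749 for 1427746_x_at and 3.91 for 1451931_x_at.

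**Figure D2:**
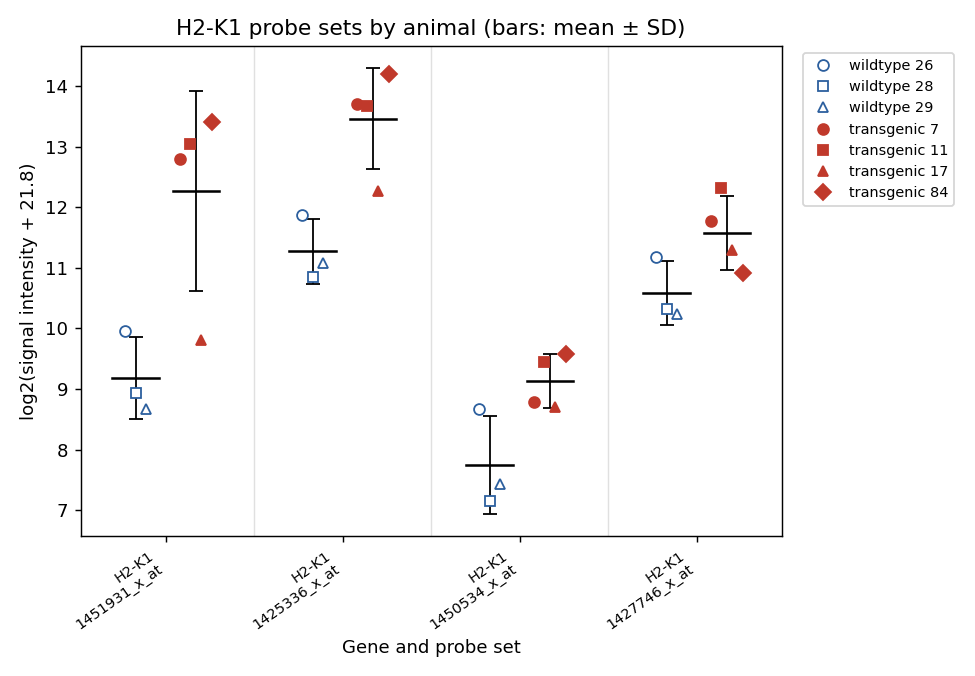
The 4 H2-K1 probe sets on the x axis with each animal's log2 level (signal intensity plus 21.8) on the y axis; open blue symbols are wildtype, filled red symbols transgenic, and bars the mean ± SD (n = 3 and 4). Transgenic 84 is highest in 1451931_x_at, 1425336_x_at and 1450534_x_at (13.41, 14.21 and 9.58) and the lowest transgenic animal in 1427746_x_at (10.92).

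Probe sets of a gene did not always resemble each other. Likeness was measured as the root mean square distance between log2 levels over the 7 animals after each probe set was centred on its mean. H2-D1 1451784_x_at lay 0.202 from H2-K1 1451931_x_at and 0.203 from H2-D1 1425545_x_at, but H2-D1 1450170_x_at lay 4.25 from H2-D1 1451683_x_at, the largest distance between any of the 21 member probe sets past the level filter. Transgenic 7, 11 and 84 lay above the other 4 animals in 7 of these 21 probe sets, 4 of H2-D1 and 3 of H2-K1, an arrangement that was noticed in these values. The share of all probe sets with this arrangement was not counted, so nothing is read from the number. Most of these probe sets have the _x_at ending, and how far they bind transcripts of each other's genes was not tested.

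**Figure D3:**
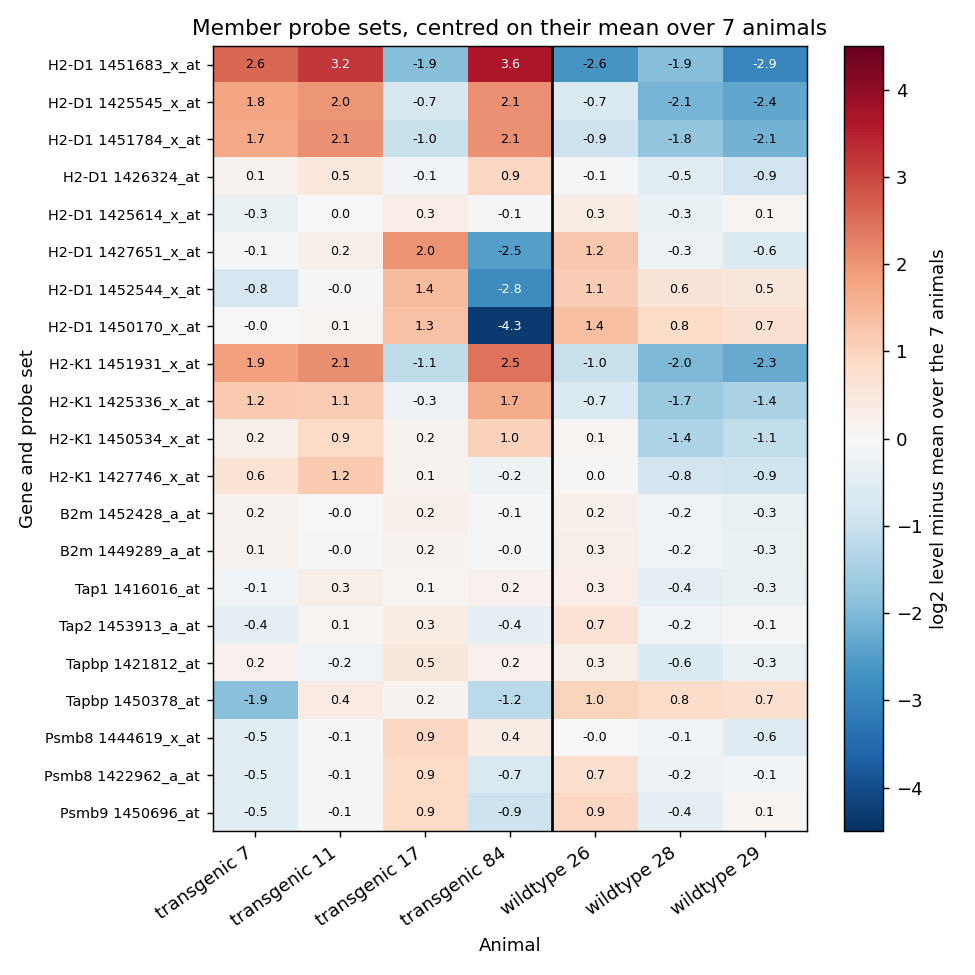
The 21 member probe sets past the level filter (rows) in the 7 animals (columns), each cell giving the log2 level minus the mean of that probe set over the animals, with red above and blue below. In the first 3 rows transgenic 17 is blue with wildtype, and rows of B2m and Tap1 are pale throughout.

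A probe set annotated to both H2-K1 and H2-D1 falls outside the selection and gave a further order. In 1424948_x_at transgenic 17 stood highest at 13.35 and transgenic 84 lowest at 11.00, with 11.78 and 12.24 in transgenic 7 and 11 and 12.95, 11.80 and 12.17 in wildtype 26, 28 and 29. The groups overlapped fully (12.09 ± 0.98 against 12.31 ± 0.59). A total of 3 probe sets named a member together with another gene and were left out for that reason.

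B2m, the invariant light chain without which class I molecules do not reach the cell surface, did not separate the groups. In 1449289_a_at the transgenic animals 7, 11, 17 and 84 stood at 15.02, 14.83, 15.03 and 14.83, within the wildtype range set by 15.13, 14.71 and 14.57 in animals 26, 28 and 29. The other probe set, 1452428_a_at, gave 14.59, 14.39, 14.63 and 14.36 against 14.66, 14.22 and 14.10. Its distance from the first was 0.032, the smallest between any member probe sets. Log2 differences were 0.12 (95% confidence interval -0.21 to 0.46) and 0.17 (-0.18 to 0.52). So in B2m wildtype 26 was highest, wildtype 29 lowest, and the transgenic animals lay between.

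Tap1, a subunit of the peptide transporter, likewise overlapped. Its only probe set past the level filter, 1416016_at, gave 9.41, 9.80, 9.62 and 9.72 in transgenic 7, 11, 17 and 84 and 9.83, 9.08 and 9.20 in wildtype 26, 28 and 29. The log2 difference was 0.27 (95% confidence interval -0.21 to 0.75), with wildtype 26 above every transgenic animal. The other 3 Tap1 probe sets lay between 4.79 and 6.52 in every animal, near the floor. Tap2, the partner subunit, gave 8.73, 9.25, 9.50 and 8.82 against 9.83, 9.01 and 9.09 (difference -0.24, interval -0.85 to 0.38), again with wildtype 26 highest.

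Tapbp gave different answers from its probe sets. The more abundant, 1421812_at, stood at 12.29, 11.92, 12.62 and 12.30 in transgenic 7, 11, 17 and 84 and at 12.36, 11.50 and 11.77 in wildtype 26, 28 and 29, with overlapping groups (difference 0.41, interval -0.12 to 0.93). The other, 1450378_at, stood at 5.23, 7.48, 7.26 and 5.91 against 8.13, 7.95 and 7.81. There every transgenic animal lay below every wildtype animal, by a mean of 1.49, and the animals with the highest Gapdh ratios, 7 and 84, were the lowest. Fitted together with the Gapdh ratio, the difference of 1450378_at was -0.03, and without transgenic 7 and 84 it was -0.59.

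The immunoproteasome subunits followed each other closely and were highest in an animal of each group. Psmb8 in 1422962_a_at gave 9.98, 10.43, 11.36 and 9.80 in transgenic 7, 11, 17 and 84 and 11.22, 10.28 and 10.37 in wildtype 26, 28 and 29. Psmb9 in 1450696_at gave 9.67, 10.06, 11.03 and 9.21 against 11.07, 9.72 and 10.23. Transgenic 17 and wildtype 26 stood above the other 5 animals in both genes, and the distance between these probe sets was 0.162. Log2 differences between the groups were -0.23 for Psmb8 (95% confidence interval -1.11 to 0.65) and -0.35 for Psmb9 (-1.36 to 0.66). The weaker Psmb8 probe set 1444619_x_at ranged from 6.43 to 7.93, with transgenic 17 highest.

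**Figure D4:**
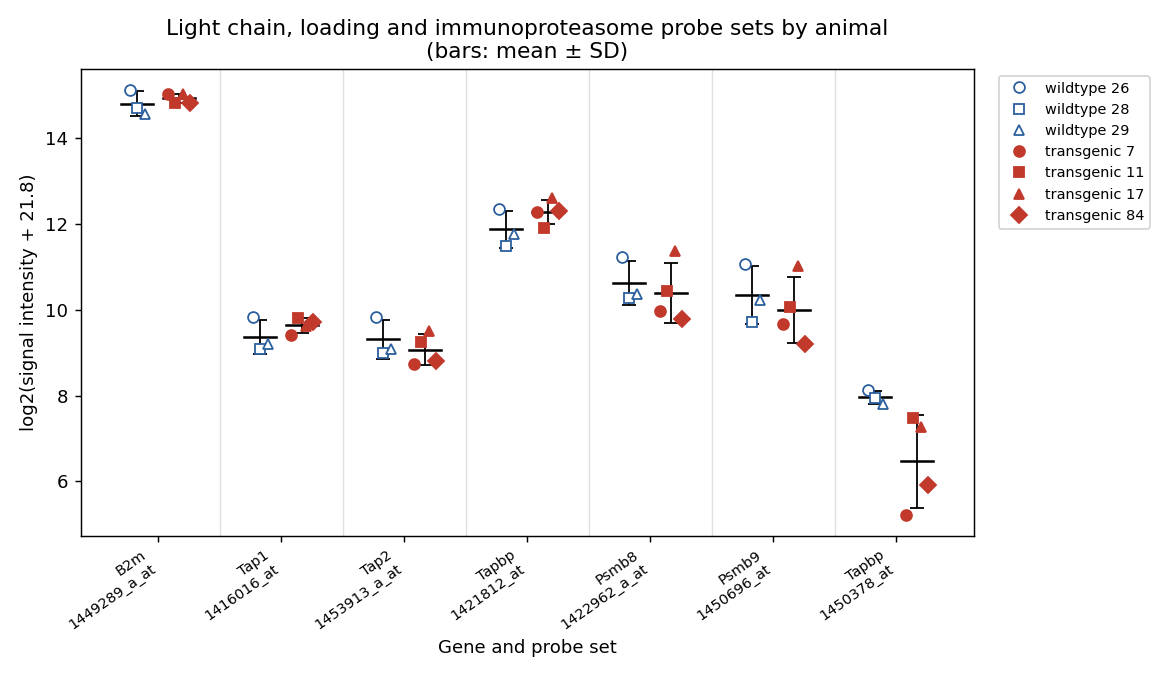
The most abundant probe set of B2m, Tap1, Tap2, Tapbp, Psmb8 and Psmb9 and the second probe set of Tapbp on the x axis, with each animal's log2 level (signal intensity plus 21.8) on the y axis; open blue symbols are wildtype, filled red symbols transgenic, and bars the mean ± SD (n = 3 and 4). Groups overlap in the first 6 probe sets, with transgenic 17 and wildtype 26 on top in Psmb8 (11.36 and 11.22) and Psmb9 (11.03 and 11.07).

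Over all members, 21 of 25 probe sets passed the level filter, and 0 of these 21 had a limma adjusted p under 0.05, where 0.0148% of all 27022 probe sets tested did (0.0074% higher in transgenic skin). The adjusted p of the members ran from 0.229 to 0.953, and 9 had an unadjusted p under 0.05, against 11.7% of all probe sets. Groups did not overlap in 3 probe sets higher in transgenic skin (4.58% of all) and in 1 lower (6.71% of all). The median log2 difference of the 21 was 0.27, with 13 above 0, and the median of all probe sets tested was 0.001. Without transgenic 17, 5 members had an adjusted p under 0.05, against 0.0444% of all probe sets (0.037% higher): H2-D1 1451683_x_at (0.00625), 1451784_x_at (0.0153) and 1425545_x_at (0.0443), and H2-K1 1451931_x_at (0.0153) and 1425336_x_at (0.0393). Since the genes were picked on this contrast, nothing is read from these counts.

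Sex was not used in the choice of the genes and was tested in a fit with group and sex. Of the 21 member probe sets 0 had a limma adjusted p under 0.05 between females and males, where 0.226% of all probe sets did, and 4 had an unadjusted p under 0.05, against 10.9% of all. These 4 were lower in females: Tapbp 1450378_at by a log2 difference of -1.17 (SE 0.374), H2-D1 1427651_x_at (-1.89, SE 0.705) and 1452544_x_at (-1.63, SE 0.639), and Psmb8 1422962_a_at (-0.76, SE 0.305), with limma adjusted p between 0.36 and 0.429. The females 7 and 84 were also the animals with the highest Gapdh ratios, so for transgenic animals sex and that ratio cannot be told apart. Whether the group difference itself differed between the sexes was tested as an interaction, with 1 wildtype female. Limma gave 0 members with an adjusted p under 0.05, 0% of all probe sets, and 1 member (Tapbp 1450378_at) and 2.86% of all at an unadjusted p under 0.05.

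Nearest probe sets were sought for the H2-D1 and the H2-K1 probe set with the largest absolute group difference. The root mean square distance is not scaled, so it also depends on how far levels spread between animals. The nearest were mostly _x_at probe sets of the class I chains themselves, and how far these bind the same transcripts was not tested. Of 23273 probe sets with a single gene symbol, the 5 nearest to H2-D1 1451683_x_at over the 7 animals were H2-K1 1451931_x_at (distance 0.990), the H2-D1 probe sets 1451784_x_at and 1425545_x_at (1.13 and 1.22), Ap1s3 (1.44) and Snx6 (1.53), against a median distance of 2.77. Those nearest to H2-K1 1451931_x_at were H2-D1 1451784_x_at and 1425545_x_at (0.202 and 0.260), Ap1s3 (0.649), H2-K1 1425336_x_at (0.726) and H2-Aa 1443783_x_at (0.823), against a median of 1.93. Probe sets found in this way resemble the reference over these animals by the search itself, so their values are a description only. Ap1s3, a subunit of a clathrin adaptor, stood at 10.79, 9.60, 7.61 and 10.84 in transgenic 7, 11, 17 and 84 and at 7.74, 6.89 and 7.56 in wildtype skin. H2-Aa, an MHC class II chain, stood in this probe set at 9.66, 9.78, 7.96 and 10.80 against 9.12, 6.54 and 7.17, while its most abundant probe set gave a log2 difference of 0.35.

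Between H2-K1 and H2-D1 in RefSeq order lie 116 genes apart from the members, of which 56 had a single-symbol probe set past the level filter as their most abundant one. With all 80 probe sets of these genes past the filter, the log2 difference ran from -1.59 for Vars, the valyl-tRNA synthetase, to 1.94 for H2-Aa 1443783_x_at, in which transgenic 7, 11 and 84 again lay above the other 4 animals. Of the 80, 36 lay above 0 and 44 below (median -0.06), and the 12 H2-K1 and H2-D1 probe sets past the filter ran from -1.68 to 4.38. With only the most abundant probe set of each gene, the range was -1.59 to 0.97, and on that basis H2-D1 itself stood at -1.68 and H2-K1 at 2.19. Groups of these 56 did not overlap in 1 gene higher in transgenic skin (H2-DMb2, a chain of the class II peptide exchanger, 9.68 ± 0.62 against 8.71 ± 0.05) and 1 lower (Bag6, a chaperone, 9.52 ± 0.18 against 9.96 ± 0.22), where 5.16% and 3.89% of all 13559 genes did. By limma 0 of the 56 had an adjusted p under 0.05, as for 0% of all genes, and 8 had an unadjusted p under 0.05, against 9% of all genes. The 5 measured genes on each side of H2-K1 had median log2 differences of 0.15 and -0.27, and those on each side of H2-D1 -0.05 and 0.04. Of these 20 genes, Wdr46 (-0.27) and the corneodesmosome gene Cdsn (-0.83) had groups that did not overlap. Cdsn stood at 12.87, 12.50 and 12.41 in transgenic 7, 11 and 84. In transgenic 17 Cdsn stood at 13.39, nearer to wildtype 26, 28 and 29 at 13.55, 13.68 and 13.63. Around B2m the medians were 0.11 before and -0.26 after it, and Duoxa1, a maturation factor of dual oxidases, was at 8.69 ± 0.41 against 9.63 ± 0.22 without overlap.

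**Figure D5:**
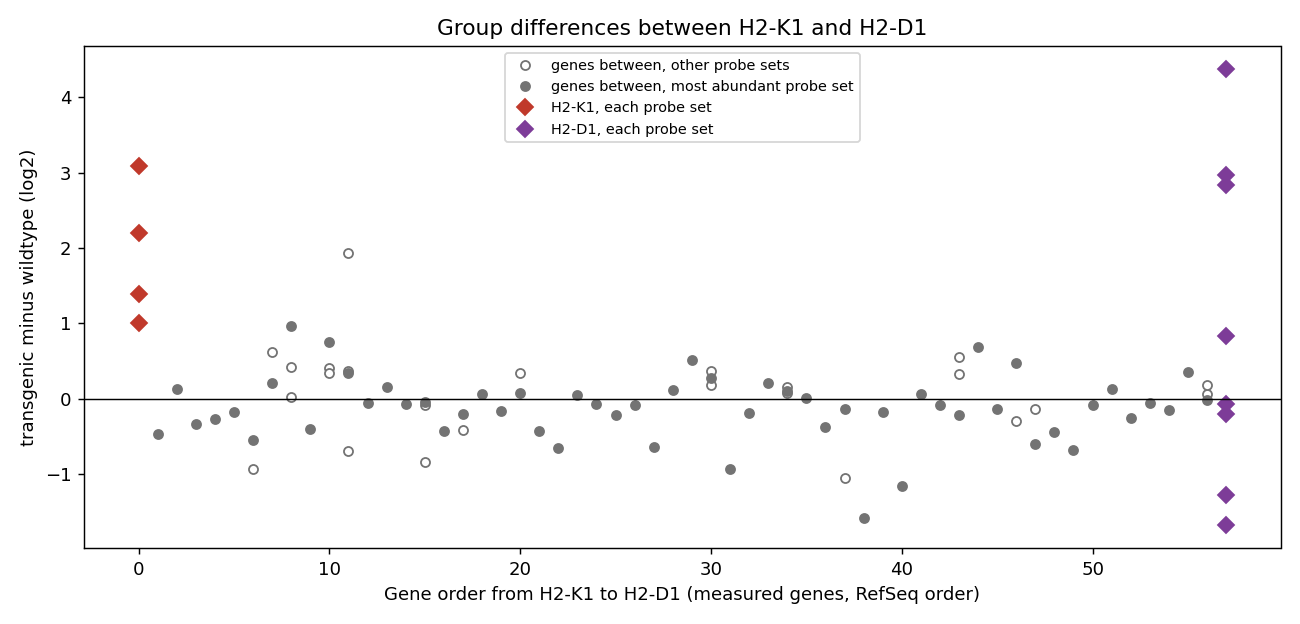
Log2 difference (transgenic minus wildtype) on the y axis against gene order from H2-K1 to H2-D1 on the x axis, with each H2-K1 and H2-D1 probe set past the level filter as a diamond. Circles are the probe sets of the 56 measured genes between, filled for the most abundant of a gene and open for the others; they run from -1.59 to 1.94, the highest being H2-Aa 1443783_x_at, and the diamonds from -1.68 to 4.38.

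Other genes of the class I pathway, with the most abundant probe set of each, mostly overlapped between the groups. Of 9 other class I and class I-like chains past the filter 6 lay above 0 (median 0.12). Among them Cd1d1, which presents lipids to natural killer T cells, had groups that did not overlap (11.21 ± 0.27 against 10.25 ± 0.45), while H2-T24 gave 6.48 ± 1.06 against 7.45 ± 0.21 and H2-M3, which presents formylated peptides, 9.44 ± 0.30 against 9.15 ± 0.52. Of 9 genes of peptide loading and trimming 4 lay above 0 (median -0.06), and Pdia3, the disulfide isomerase of the loading complex, had groups that did not overlap (11.82 ± 0.47 against 12.45 ± 0.11), lowest in transgenic 7 and 84 at 11.48 and 11.34. Of 19 other proteasome genes 11 lay above 0 (median 0.06), with Psma6 (0.25) and Psmb1 (0.20) not overlapping and Psmb10, the third immunoproteasome subunit, at -0.41. For Psmb1, transgenic 84 at 12.705 lay barely above wildtype 29 at 12.704, and its other probe sets gave differences from -0.29 to -0.018. Of these 3 lists 0 genes had a limma adjusted p under 0.05, and at an unadjusted p under 0.05 there were 1, 1 and 0, against 9% of all genes. Over all genes, 5.16% were higher and 3.89% lower in transgenic skin without overlap.

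Regulators of class I genes and interferon targets did not pass the test in either direction. Of 20 regulators 13 lay above 0 (median 0.15). Nlrc5, the main transactivator of class I genes, stood at 9.88 ± 0.43 in transgenic and 9.80 ± 0.58 in wildtype skin, and Irf1, an interferon regulatory factor, had a difference of 0.10 (SE 0.202). Nfyc, a subunit of the factor that binds CCAAT boxes, stood at 10.68, 10.50, 10.30 and 10.70 in transgenic 7, 11, 17 and 84 and at 9.48, 9.64 and 9.47 in wildtype skin, without overlap (limma adjusted p = 0.134). Of 22 interferon-stimulated genes 7 lay above 0 and 15 below (median -0.15), with groups not overlapping in 0 of them. Cxcl9 and Iigp1, targets of interferon gamma, had differences of -0.61 and -0.599. Of 9 class II genes 4 lay above 0 (median -0.05, and 0.35 over all their probe sets). By limma 0 genes of these 3 lists had an adjusted p under 0.05, and 2, 0 and 2 had an unadjusted p under 0.05, against 9% of all genes.

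Leukocyte, T and natural killer cell and macrophage markers were highest, as list means, in wildtype 26 and transgenic 17, the animals with the most Psmb8 and Psmb9. The mean of 6 leukocyte markers was 11.68 in wildtype 26 and 11.50 in transgenic 17, against 10.51 to 11.00 in the other 5 animals, and all 6 were past the filter. T and natural killer cell markers (10 of 15 genes past the filter) stood at 8.36 in wildtype 26 and 8.05 in transgenic 17, against 7.43 to 7.86 in the others, and 9 macrophage markers at 11.71 and 11.33 against 10.57 to 11.09. Of the 4 B cell markers with a probe set 0 passed the filter. Langerhans and dendritic cell markers differed from this: wildtype 26 was highest at 10.25, but transgenic 17 at 9.59 lay below transgenic 7 at 9.64 and next to transgenic 11 at 9.57, with the other animals between 9.25 and 9.45. The ranking was not particular to immune cells. Wildtype 26 and transgenic 17 were also highest for endothelial markers (9.12 and 8.79). Keratinocyte markers (13.87 and 13.83, next transgenic 7 at 13.78) ranked likewise. So did interferon-stimulated genes (9.51 and 9.31) and other genes of peptide loading and trimming (11.72 and 11.66). Fibroblast, adipocyte and skeletal muscle markers did not. Group ranges of the leukocyte list overlapped (10.87 to 11.50 against 10.51 to 11.68), and the part of any cell type in the members' levels was not tested. In the 3 H2-D1 probe sets that were high in transgenic 7, 11 and 84, those animals stood between 11.16 and 13.72, with leukocyte means of 10.98, 11.00 and 10.87, below that of transgenic 17.

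Adipocyte markers were the marker list with the most genes whose groups did not overlap, against 0 in each of the other marker lists with genes past the filter. All 4 measured markers lay above 0 (median 0.43), 2 of them without overlap (5.16% of all genes were higher without overlap). By limma 3 had an unadjusted p under 0.05 (9% of all genes), and 0 had an adjusted p under 0.05 (0% of all genes). List means ran from 11.95 to 12.73 in transgenic and from 11.36 to 11.92 in wildtype skin. Lep, the fat cell hormone leptin, stood at 9.34, 9.98, 11.04 and 10.95 in transgenic 7, 11, 17 and 84 and at 8.55, 7.75 and 7.13 in wildtype 26, 28 and 29 (limma adjusted p = 0.217). Fabp4, a fatty acid carrier, stood at 14.98 ± 0.19 against 14.60 ± 0.06 in its most abundant probe set. Its other probe sets gave log2 differences from -0.59 to 0.32. Transgenic 17 was highest in the list at 12.73, next to transgenic 84 at 12.70, although these animals lay apart in H2-D1 1451683_x_at at 6.66 and 12.22, and the part of fat tissue in the members' levels was not tested.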

How the data were processed

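Total RNA of belly skin was labelled with the one-cycle protocol, per the labels. Per the submitters' processing notes the authors used MAS5, whose version is not given in the sources used here, and the values in the deposited table are linear intensity. All 8 arrays had a trimmed mean of 500.003, with 2% cut from each end. Symbols came from the platform annotation: 34945 probe sets had 1 symbol, 932 several and 9160 none, and 64 controls were left out of tests.

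A constant of 21.8, the 20th percentile of the whole table, was added before taking log2, and the arrays of wildtype 29 were averaged. Probe sets with a mean log2 at or above the 40th percentile (6.45) entered limma 3.58.1 in R 4.3.3 (empirical Bayes with trend, 2-sided, Benjamini-Hochberg over 27022 probe sets), with group, with group and sex, or with their product. The fit was first tested on simulated data. Members, lists, motifs and alternatives were chosen with earlier results of these data known. Every member probe set is reported. Of the lists, those genes whose groups do not overlap are given, up to 4 by smallest p, from the most abundant probe set. Further entries were named after their values were seen: Nlrc5, Irf1, Psmb10, H2-T24, H2-M3, Cxcl9, Iigp1 and Vars. So were the less abundant probe sets of B2m, Tapbp, Psmb8, H2-DMb2, H2-Aa, Psmb1 and Fabp4. Alternatives covered normalization, pseudocounts of 5.45 and 87.2, level filters, variance models, sex, the Gapdh ratio, either array of wildtype 29 and each animal left out. Summaries and figures were made in Python 3.11.15. The number of arrays limits the precision.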

Additional observations from a re-analysis of the deposited data

Results flagged for a closer look

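In 3 of the 25 member probe sets transgenic 17 lay far from the other transgenic animals, with a gap over 0.829 of the range of the group of 4. Chance flags about 1 in 20 groups. The 3 probe sets lay 0.202 to 0.260 from each other in root mean square distance. They are therefore not separate groups, and nothing is read from their number. It stood at 10.93 in H2-D1 1425545_x_at, where the others lay between 13.43 and 13.72. In H2-D1 1451784_x_at it stood at 10.64, with the others between 13.35 and 13.70. In H2-K1 1451931_x_at it stood at 9.82, with the others between 12.81 and 13.41.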

How the results depend on the processing

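The number of member probe sets called between transgenic and wildtype skin was 0 with all 7 animals and in 19 of 20 alternative settings, and ran from 0 to 5 with an animal left out, 5 being without transgenic 17. Between females and males it was 0 in all 18 alternatives, and for the interaction of group and sex 0 in all 17 that could be fitted, alternatives added after seeing the data. The sign of the difference was kept in all alternatives for each H2-K1 probe set and for H2-D1 1451683_x_at, 1425545_x_at, 1451784_x_at and 1426324_at. It turned as follows, and the cause was not tested. With the Gapdh ratio as a covariate: H2-D1 1425614_x_at 0.14, 1427651_x_at 1.37, 1450170_x_at 0.51 and 1452544_x_at 0.43, Tap2 0.16, Psmb8 1422962_a_at 0.32 and Psmb9 0.27. Without transgenic 7 and 84: H2-D1 1425614_x_at 0.12 and 1427651_x_at 1.01, Tap2 0.068, Psmb8 0.27 and Psmb9 0.20. Without wildtype 26: H2-D1 1425614_x_at 0.069 and 1427651_x_at 0.35, Tap2 0.027, Psmb8 0.069 and Psmb9 0.013. Without transgenic 7, H2-D1 1425614_x_at gave 0.029, and without transgenic 84, 1427651_x_at gave 0.60. With each animal left out in turn, the lowest differences were -0.25 for 1425614_x_at, -0.90 for 1427651_x_at, -0.39 for Tap2, -0.555 for Psmb8 and -0.70 for Psmb9. After cyclic loess normalization H2-D1 1425614_x_at gave 0.0018 and B2m 1449289_a_at -0.041, and with sex as a covariate 1427651_x_at gave 0.12. With all probe sets of a gene, the median of the other proteasome genes was -0.016 and that of the 5 genes before H2-K1 0.029. Signals near the floor, as in 3 Tap1 probe sets, carry little information.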
